A study of Mus musculus with 8 samples.

Results

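The transcripts described here come from 36 genes of the lysosome and of autophagy: membrane proteins, hydrolases and proton pump subunits of the lysosome, a pair of transcription factors that switch such genes on, and proteins that build the autophagosome. The genes were chosen by symbol, and all 36 were found among the 24346 gene symbols with an FPKM value (sequenced fragments of a gene after correction for the length of its transcript and the depth of the library). All 36 were among the 12003 genes tested, those whose FPKM reached 1 or more in 2 or more libraries. RNA had been sequenced from hematopoietic stem cells (HSCs; Lin- Sca-1+ c-Kit+ CD48- CD150+) and from LSK cells (Lin- Sca-1+ c-Kit+), both sorted from the bone marrow of wild-type C57BL/6 adult mice of either sex. The LSK gate takes in the HSC gate, so the LSK libraries hold multipotent progenitors together with some HSCs. Both populations were kept for 1 day in serum-free medium with cytokines, either alone or together with red blood cells (RBCs) that had been taken from peripheral blood, passed through a leukocyte filter and irradiated. RBCs were lysed after culture and CD45-positive cells were sorted again before RNA was taken, so every group shares the cytokines, the culture and the second sort. Each of the 4 groups (HSCs without RBCs, HSCs with RBCs, LSK cells without RBCs and LSK cells with RBCs) had 2 libraries. The labels do not say whether these were separate animals or cultures, so the p-values below measure the spread between libraries, which may be technical.

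Lysosomes are acidic organelles in which hydrolases break down proteins, lipids and glycans. A proton pump, the V-ATPase, acidifies them, and heavily glycosylated membrane proteins line them. Autophagy delivers parts of the cell's own cytoplasm to them: a kinase and a lipid kinase complex start a membrane, a ubiquitin-like conjugation machinery attaches Atg8 proteins to its lipid, and receptors bring in cargo. TFEB and TFE3 bind the E-box CACGTG, often in its extended form TCACGTGA, in promoters of many lysosome and autophagy genes. HSCs are known to depend on autophagy and to hold lysosomes that are regulated as the cells leave quiescence.

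This letter string was found in a larger share of the promoters of these genes than of promoters at large. The genes were chosen by symbol and not by the string. Lysosome and autophagy genes are already known for it, however, so the larger share is not independent of that choice. In RefSeq promoters (GRCm38.p6, 250 bases before to 50 after the start of transcription), 30 of the 36 genes had an entry, some of them several. Of the 30, 11 (36.7%) held CACGTG, a palindrome that reads alike on both strands, in any entry. Among all 27025 genes with an entry the share was 8.09%, and among the 9157 of them that were tested here it was 12.1%. The longer TCACGTGA, also a palindrome and always counted within the shorter string too, occurred in 7 of the 30 (23.3%) against 1.12% of all genes with an entry and 2.32% of those tested. The letters do not tell which protein, if any, would bind them. One window is shown for each of the 11 genes, with the match in capitals. Each has 20 bases on either side of the 6-letter match (5′ to 3′ on the strand of the gene).
Lamp1, chr8:13159080-13159125, plus strand: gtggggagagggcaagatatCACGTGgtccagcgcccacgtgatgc
Mcoln1, chr8:3500454-3500499, plus strand: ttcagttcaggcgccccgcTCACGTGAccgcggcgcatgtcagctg
Ctsa, chr2:164833741-164833786, plus strand: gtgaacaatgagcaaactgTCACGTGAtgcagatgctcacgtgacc
Ctsd, chr7:142387900-142387945, minus strand: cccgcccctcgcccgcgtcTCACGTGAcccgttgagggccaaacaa
Gaa, chr11:119267803-119267848, plus strand: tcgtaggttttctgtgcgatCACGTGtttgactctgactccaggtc
Gla, chrX:134601207-134601252, minus strand: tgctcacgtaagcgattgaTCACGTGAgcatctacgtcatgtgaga
Atp6v0d1, chr8:105566042-105566087, minus strand: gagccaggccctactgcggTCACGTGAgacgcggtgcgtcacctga
Atp6v1a, chr16:44139365-44139410, minus strand: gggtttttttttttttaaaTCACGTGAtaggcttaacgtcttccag
Atg3, chr16:45158738-45158783, plus strand: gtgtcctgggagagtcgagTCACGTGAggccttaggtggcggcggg
Atg5, chr10:44268305-44268350, plus strand: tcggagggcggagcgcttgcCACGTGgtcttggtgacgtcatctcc
Atg7, chr6:114670944-114670989, plus strand: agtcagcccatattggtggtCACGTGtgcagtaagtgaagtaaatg

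Lamp1 held 4 copies of CACGTG in its 300 bases without the extended form, while Ctsa and Gla each held 2 copies of TCACGTGA. For 9 of the 11, the RefSeq start behind the window shown lies within 500 bases of the annotated start of the gene. The start used for Ctsa lies 900 bases into the annotated gene and that for Atg7 27999 bases into it, so their windows belong to starts within the gene. Ctsa also had an entry close to its annotated start, and that entry held no CACGTG. It was counted among the 11 for the entry within the gene alone. Psap, Tfe3 and Tfeb had several entries too, none of them with a match. These matches describe letters and not bound sites, and no binding was measured here. Membrane, hydrolase, pump and conjugation genes are all among the 11, while none of the Atg8 family or of the initiation genes with an entry is. No entry was used for Ctsb, Atp6v1h, Becn1, Atg12, Atg16l1 and Map1lc3a.

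The libraries were alike in size as far as the values show it. FPKM summed to between 680942 and 752107 per library, and the relative depth, read from the steps between low values, ranged from 0.886 to 1.13, while the absolute number of reads is unknown. Between 14829 and 15618 genes had a value above 0 in 7 libraries and 16551 in the first library of HSCs with RBCs. HSC and progenitor markers were present throughout (11 listed genes, summing to 1096 to 1489 FPKM). Of these, Slamf1 (CD150) and Cd48 differ between the populations by the sort itself. With RBCs, 1 of the 11 was called higher and 3 lower in HSCs, and 0 either way in LSK cells. Macrophage markers, which matter because macrophages are rich in lysosomes, summed to 61.4 and 75.9 FPKM in LSK cells alone, 120.2 and 118 in LSK cells with RBCs, 92.9 and 114.5 in HSCs alone and 107 and 113 in HSCs with RBCs. This sum came mostly from Cd68 and Csf1r, whereas 8 of the 12 macrophage markers stayed under 1 FPKM in every library, and C1qa and Marco were listed at 0 in all. Neutrophil markers summed to 10.6 and 8.54 FPKM in HSCs alone, 252 and 46.2 in HSCs with RBCs, 128 and 219 in LSK cells alone and 568 and 364 in LSK cells with RBCs, and S100a8 and S100a9 made up most of the sums above 100 FPKM. Of the red blood cell markers, Hba-a1, an alpha globin gene, had 0.083 and 1.40 FPKM in HSCs alone, 116 and 88.7 in HSCs with RBCs, 0.864 and 1.53 in LSK cells alone and 32.9 and 43.1 in LSK cells with RBCs, so every library with RBCs lay above every library without. The whole red blood cell list summed to 283 and 339 FPKM in HSCs alone and 309 and 300 in HSCs with RBCs. In LSK cells its sum was 112 and 179 without RBCs and 185 and 121 with them. Another globin gene, Hbb-b2, made up most of the sums without RBCs. It went the other way in HSCs, with 278.5 and 334.8 FPKM alone and 120.3 and 158.5 with RBCs. Reads of near-identical globin genes may be split between copies. Of the 7 red blood cell markers tested, 3 were called higher with RBCs in HSCs and 1 in LSK cells.

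As a set, the 36 genes were well expressed. Their FPKM values summed to between 4340 and 4654 in the 4 HSC libraries and between 5322 and 5603 in the 4 LSK libraries, without overlap, which is 0.605 to 0.653% and 0.75 to 0.808% of all FPKM. Cd63 and Ctsd alone made up 41.6 to 48.7% of the sum. Averaged over the 8 libraries, 11 of the 36 lay at 100 FPKM or above, 28 at 20 or above and 5 under 10. The mean level per transcript length spanned from 3.13 FPKM for Gla to 1427 for Cd63. Replicates were close for most genes: the median gap between the 2 libraries of a group was 0.105 on the log2 scale, and only Wipi1 and Gabarapl1 had a gap above 0.5 in any group.

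**Figure D1:**
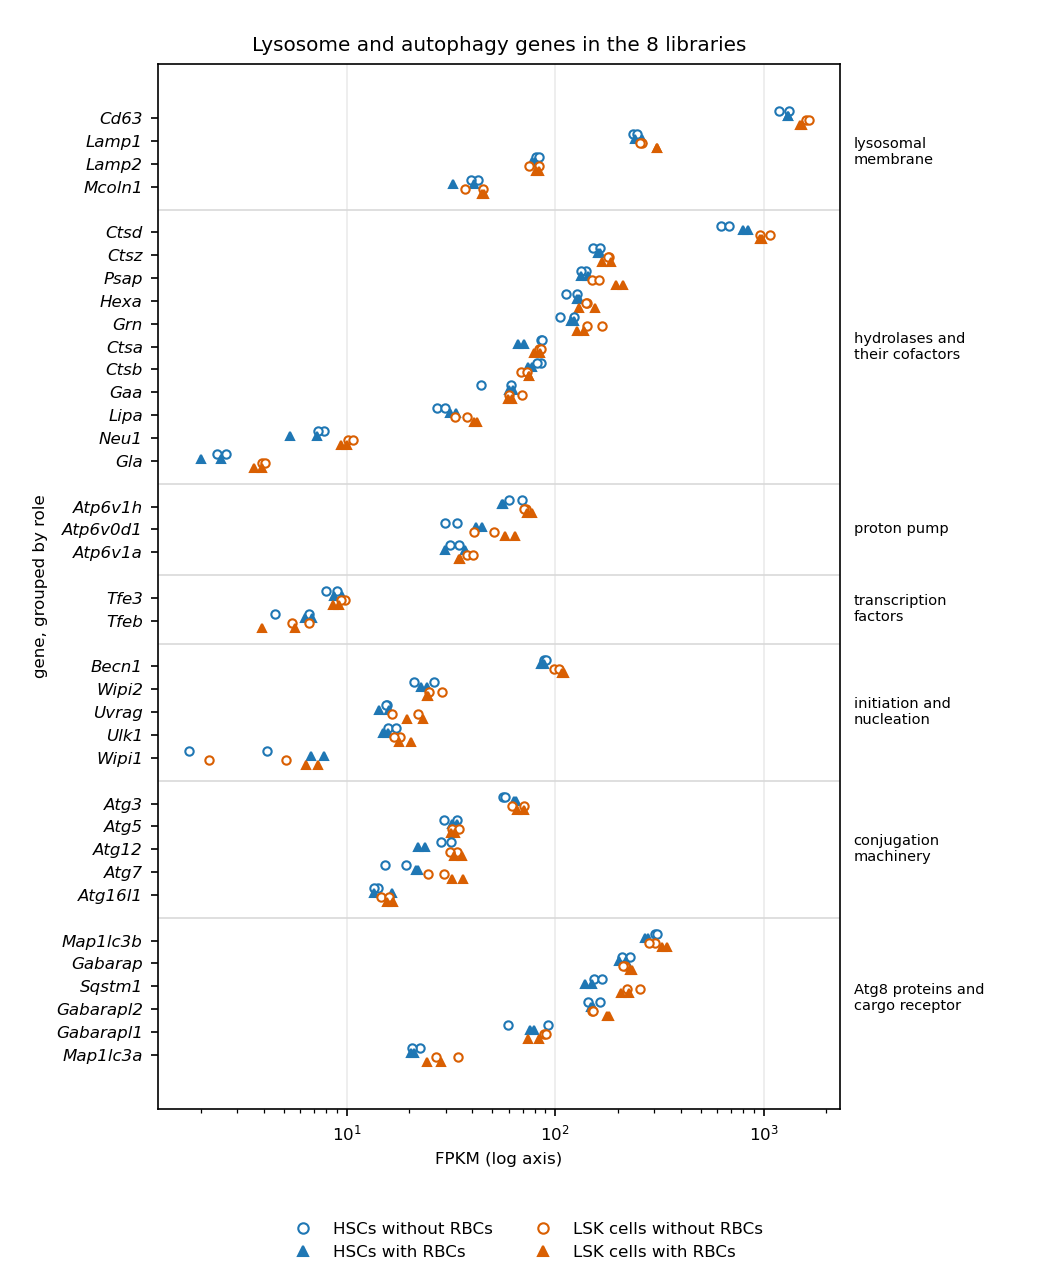
FPKM (log axis) of the 36 lysosome and autophagy genes in each of the 8 libraries, with genes grouped by role and ordered by mean level; open circles are cells without RBCs, filled triangles cells with RBCs, blue HSCs and orange LSK cells. Cd63 (mean 1427 FPKM) and Ctsd (mean 865) stand above the other genes, and the points of Wipi1 are spread most widely.

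More of the 36 genes were called between the cell types than for RBCs. Without RBCs, 7 of the 36 genes (19.4%) were higher in LSK cells than in HSCs at a Benjamini-Hochberg adjusted p under 0.05 (limma, adjusted over all 12003 genes) and 0 were lower, where 6.93% of all genes tested were higher and 7.29% lower. These were Ctsd, Sqstm1, Atg7, Atp6v0d1, Map1lc3a, Grn and Cd63. With RBCs, 16 of the 36 (44.4%) were higher in LSK cells and 0 lower, against 11.9% and 12.5% of all genes. These were Lamp1, Ctsa, Ctsd, Gla, Psap, Lipa, Neu1, Atp6v0d1, Atp6v1h, Becn1, Uvrag, Atg7, Atg12, Map1lc3b, Gabarapl2 and Sqstm1. At an unadjusted p under 0.05, in either direction, the numbers were 16 of the 36 (44.4%) without RBCs beside 28.7% of all genes, and 20 (55.6%) with RBCs beside 37.6%. The comparison was repeated over genes with a mean of at least 20 FPKM: 7 of 28 (25.0%) against 8.34% of all such genes without RBCs, and 13 of 28 (46.4%) against 12.9% with RBCs.

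The differences were small in size. No called gene of the 36 reached a 2-fold difference in either comparison, while 2.66% of all genes without RBCs and 3.61% with RBCs were called at 2-fold or more. The median log2 difference, LSK cells minus HSCs, was 0.18 without RBCs and 0.25 with RBCs, beside a median of 0.0085 and 0.0075 over all genes tested. It was above 0 for 29 of the 36 genes without RBCs and for 30 with RBCs, beside 6166 and 6108 of all 12003 genes tested. For 24 of the 36 it was above 0 in both comparisons. The share of all genes above 0 in both is not given here, so the 24 are not read as agreement gene by gene. Ctsd, Atp6v0d1, Atg7 and Sqstm1 were called in both, 4 of the 7 genes without RBCs and 4 of the 16 with them. The share of all genes tested that were called in both is not given here. In bulk RNA a different mix of cells and a different amount of RNA per cell cannot be told apart. Neutrophil markers were also higher in every LSK library than in the HSC libraries of the same condition (128 and 219 against 10.6 and 8.54 FPKM without RBCs, and 568 and 364 against 252 and 46.2 with RBCs). So was the macrophage marker Csf1r (14.1 and 22.8 against 2.53 and 2.81 FPKM without RBCs, and 47.2 and 54.3 against 7.08 and 9.37 with RBCs). Cd68 went the other way. Of the 3 macrophage markers tested, 1 was called higher in LSK cells and 1 lower in each condition. The part of such cells in these differences was not tested.

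**Figure D2:**
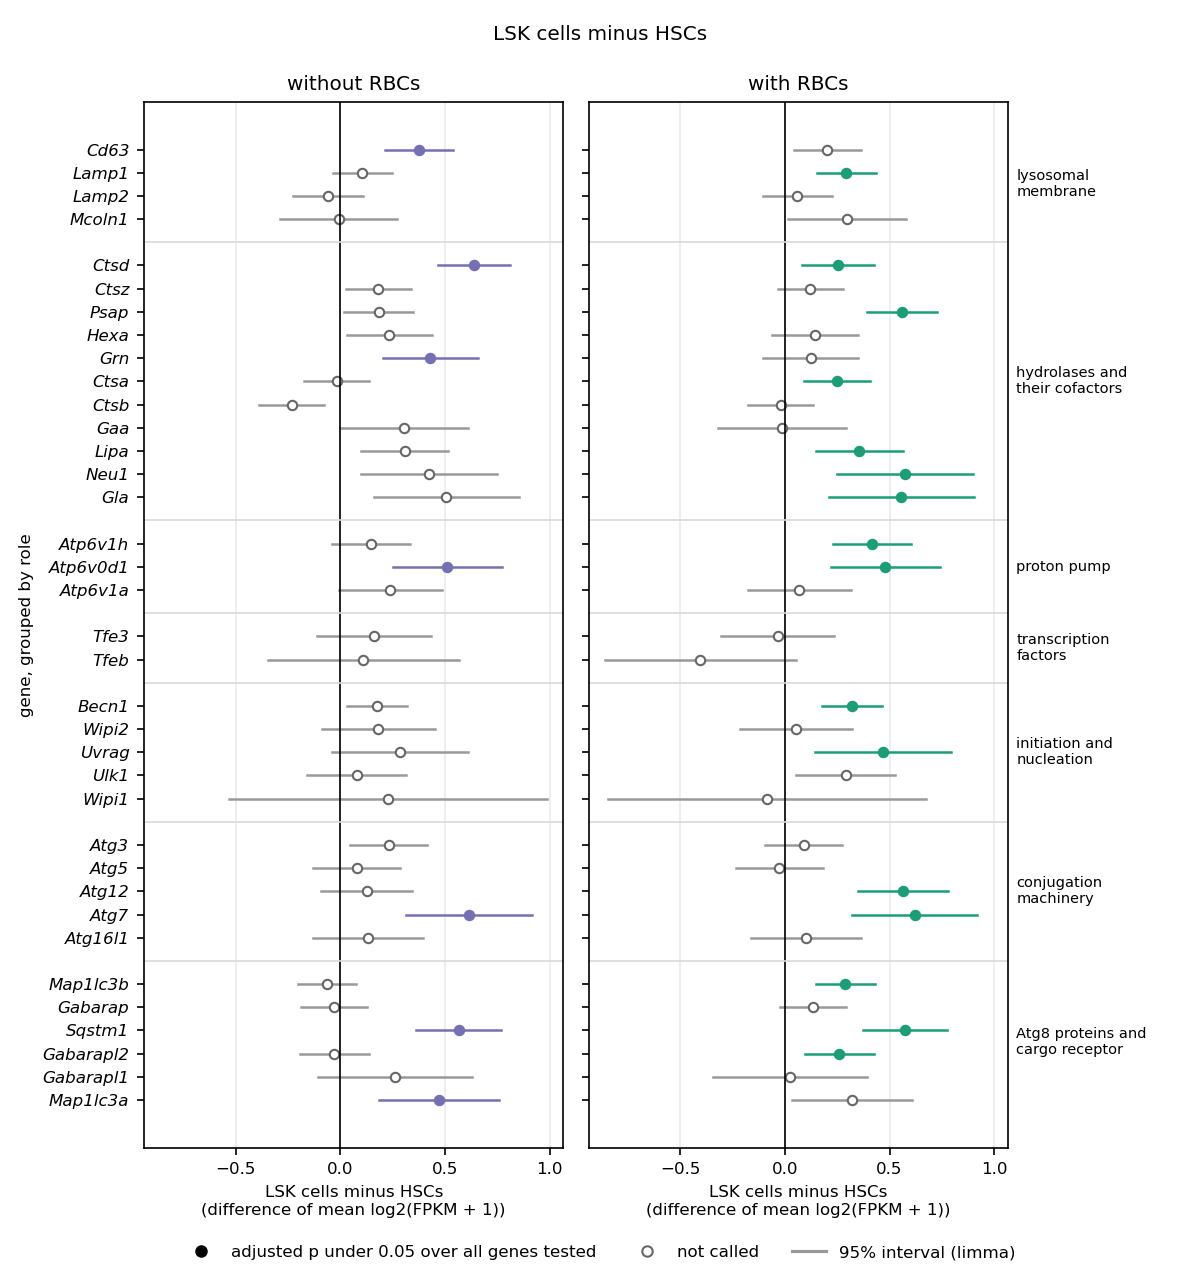
Difference in mean log2(FPKM + 1) between LSK cells and HSCs for the 36 genes, without RBCs (left) and with RBCs (right), with 95% intervals from limma; filled coloured points passed an adjusted p under 0.05 over all genes tested and open points did not. Filled points lie to the right of 0 in both panels, 7 on the left and 16 on the right.

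Which genes were called depended on single libraries. Without RBCs, 3 of the 7 were still called when the second LSK library was left out (Ctsd, Atp6v0d1 and Sqstm1), and 4 when the second HSC library was left out (Ctsd, Atp6v0d1, Sqstm1 and Cd63). With RBCs, 7 were called without the first LSK library, 4 without the second LSK library, 7 without the first HSC library and 6 without the second HSC library. Ctsd and Sqstm1 without RBCs, and Psap, Atg12 and Sqstm1 with RBCs, were called under all 18 alternatives tried.

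Coculture with RBCs changed fewer of these genes. In HSCs, Ctsa was lower with RBCs and 0 of the 36 genes were higher, where 1.57% of all genes were higher, 0.958% lower and 0.775% called at 2-fold or more. In LSK cells, Psap was higher with RBCs and 0 were lower, where 2.32% of all genes were higher, 1.13% lower and 1.01% called at 2-fold or more. A single gene of 36 is 2.78%, so 1 gene decides these shares. At an unadjusted p under 0.05, 8 of the 36 (22.2%) passed in HSCs, beside 13.7% of all genes, and 8 in LSK cells, beside 18.6%. Markers of other cells also differed with coculture. Hba-a1 was higher in every library with RBCs, whereas Hbb-b2 was lower in both HSC libraries with RBCs than in both without. The neutrophil marker sum was 10.6 and 8.54 FPKM without RBCs against 252 and 46.2 with them in HSCs. In LSK cells this sum was 128 and 219 against 568 and 364. The part of these other cells in the RBC effects was not tested. On the log2 scale the median difference over the 36 was 0.0077 for HSCs and 0.045 for LSK cells, beside -0.0062 and -0.0095 over all genes tested. In each cell type 20 of the 36 had a positive difference and 16 a negative one. Of all 12003 genes tested, 5791 were positive in HSCs and 5763 in LSK cells. A positive difference in both cell types was seen for 9 of the 36 (Lamp1, Hexa, Psap, Lipa, Atp6v0d1, Wipi1, Atg3, Atg7 and Atg16l1). A negative one in both was seen for 5 (Ctsa, Gla, Neu1, Map1lc3a and Sqstm1). The rest of the 36 went opposite ways in HSCs and LSK cells. The share of all genes with the same sign in both is not given here, so these lists are not read as a shared response.

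No difference in the effect of RBCs between the cell types passed the threshold. The test of that difference called 0 of the 36 genes in limma, with 0.133% of all genes called, and 7 of the 36 (19.4%) had an unadjusted p under 0.05, beside 12.5% of all genes (Ctsa, Ctsd, Psap, Atp6v1h, Atg12, Map1lc3b and Gabarapl2). The lowest adjusted p was 0.18, for Map1lc3b. The same test asks whether the gap between LSK cells and HSCs differs with and without RBCs, so the larger number of calls with RBCs is not shown to be a difference for any single gene. Because comparisons of cell types and of RBC effects share libraries, their values for a gene are set side by side below and not counted as agreement.

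**Figure D3:**
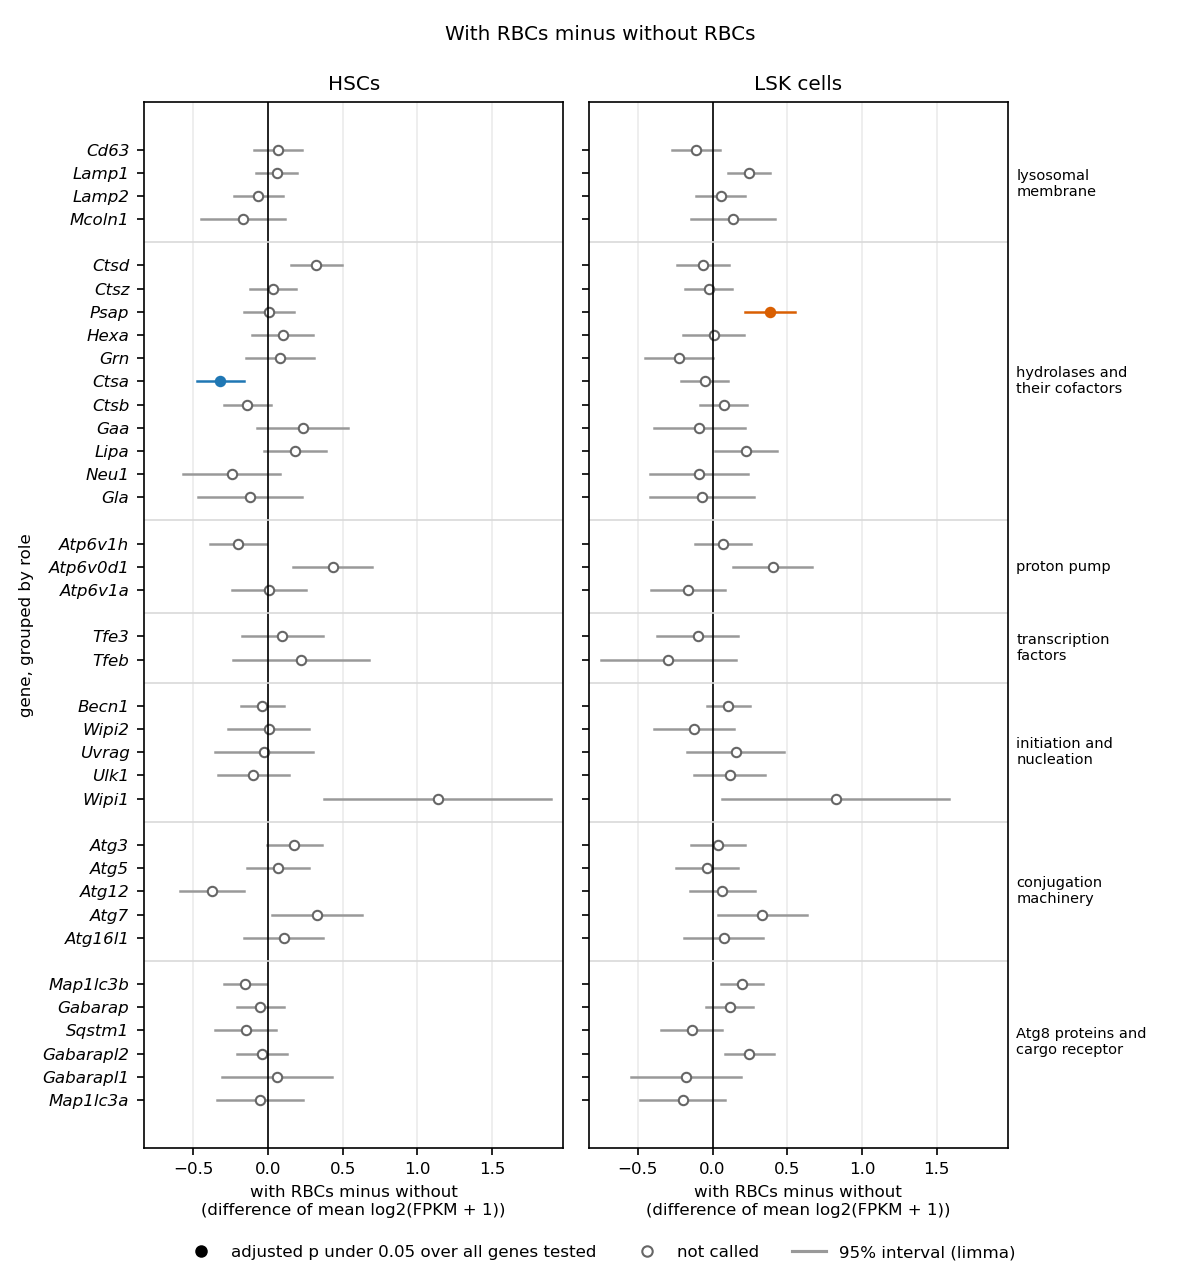
Difference in mean log2(FPKM + 1) between cells with and without RBCs for the 36 genes in HSCs (left) and LSK cells (right), with 95% intervals from limma; filled coloured points passed an adjusted p under 0.05 over all genes tested. Ctsa in HSCs and Psap in LSK cells are the filled points, and Wipi1 has the widest interval in both panels.

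The lysosomal membrane genes were led by Cd63 (chr10:128900989-128912822, plus strand), a tetraspanin of late endosomes, lysosomes and secreted vesicles. Its FPKM was 1181 and 1332 in HSCs without RBCs, 1309 and 1315 in HSCs with RBCs, 1604 and 1652 in LSK cells without and 1529 and 1492 in LSK cells with RBCs. Every LSK library lay above every HSC library, although the difference passed the test only without RBCs (0.38, SE 0.071, adjusted p = 0.0087, 29.5% higher mean FPKM) and was 0.20 with them (adjusted p = 0.067). Lamp1 (chr8:13159161-13175338, plus strand), the abundant glycoprotein of the lysosomal membrane, had 236 and 246 FPKM in HSCs alone, 260.1 and 242 in HSCs with RBCs, 262 and 256.5 in LSK cells alone and 308 and 308 in LSK cells with RBCs. LSK cells with RBCs stood above the other groups: the log2 difference from HSCs with RBCs was 0.29 (SE 0.062, adjusted p = 0.0088), and that from LSK cells without RBCs was 0.25 and missed the threshold (adjusted p = 0.07). Lamp2 (mean 80.6 FPKM), its relative with a role in chaperone-mediated autophagy, and Mcoln1 (mean 40.9 FPKM), the calcium channel of the lysosome, were not called in any comparison. Their log2 differences between LSK cells and HSCs were -0.059 and -0.0083 without RBCs and 0.059 and 0.30 with them.

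Among the 11 hydrolases and cofactors, Ctsd (chr7:142375911-142388038, minus strand), which encodes the aspartic protease cathepsin D, was the highest. Its FPKM was 626 and 680.0 in HSCs without RBCs, 841 and 793 in HSCs with RBCs, 958.5 and 1078 in LSK cells without and 979 and 966 in LSK cells with RBCs. The 4 groups stood apart except for the 2 LSK groups, and the LSK libraries exceeded the HSC libraries in each condition. The log2 difference was 0.64 (SE 0.076, adjusted p = 0.00085) without RBCs (95% interval 0.47 to 0.81, 55.9% higher mean FPKM), which is the largest of the 36 genes there. With RBCs the gap was 0.25 (SE 0.076, adjusted p = 0.04), a call kept in 9 of 18 alternatives. The log2 difference with RBCs against without was 0.32 in HSCs (adjusted p = 0.068) and -0.064 in LSK cells (adjusted p = 0.71), and neither was called. With quantile normalization the Ctsd difference in HSCs was called (adjusted p = 0.01), as it was with the filter on all 8 libraries (adjusted p = 0.046).

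Psap (chr10:60277627-60302597, plus strand), the precursor of the saposins that help hydrolases reach sphingolipids, was the one gene called higher with RBCs. Its levels were 141 and 134 FPKM in HSCs alone, 143 and 133 in HSCs with RBCs, 149.9 and 162.5 in LSK cells alone and 196 and 212 in LSK cells with RBCs. Both LSK libraries with RBCs exceeded all 6 others. With RBCs, LSK cells were higher than without by 0.38 (SE 0.074, adjusted p = 0.025), a mean FPKM 30.7% higher, and the difference in HSCs was 0.0086 (95% interval -0.16 to 0.18). The difference between these effects was 0.38 with an adjusted p of 0.21. Without the first or second LSK library lacking RBCs the adjusted p for the effect in LSK cells was 0.16 or 0.068, and without the first or second LSK library with RBCs it was 0.085 or 0.19. Beside it, the macrophage marker sum in LSK cells was 61.4 and 75.9 FPKM without RBCs and 120.2 and 118 with them. That sum came mostly from Csf1r and from Cd68, which is itself a lysosomal gene. Of the 12 macrophage markers, 8 stayed under 1 FPKM in every library. The neutrophil marker sum in LSK cells was 128 and 219 without RBCs and 568 and 364 with them. The part of such cells in the Psap difference was not tested. Against HSCs with RBCs, Psap was higher in LSK cells by 0.56 (SE 0.074, adjusted p = 0.00097), and this call held under all 18 alternatives.

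Ctsa (chr2:164832873-164841032, plus strand), the carboxypeptidase cathepsin A that also protects neuraminidase, was the one gene called lower with RBCs. Its FPKM was 85.5 and 86.5 in HSCs without RBCs, 66.3 and 71.2 in HSCs with RBCs, 84.0 and 85.8 in LSK cells without and 79.2 and 84.7 in LSK cells with RBCs. Both HSC libraries with RBCs lay below all 6 others. The log2 difference with RBCs against without in HSCs was -0.32 (SE 0.069, adjusted p = 0.049), and with RBCs the LSK cells were higher than HSCs by 0.25 (SE 0.069, adjusted p = 0.029). The difference in HSCs sat at the edge of the threshold: it was called in 2 of 18 alternatives, with an adjusted p from 0.033 to 0.33, and leaving out any of the 8 libraries ended the call. In LSK cells the effect of RBCs was -0.052 (95% interval -0.21 to 0.10). Ctsa overlaps Neurl2 and Pltp on the other strand.

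Further hydrolase genes separated LSK cells from HSCs with RBCs. Lipa (chr19:34492318-34527474, minus strand), the lysosomal acid lipase, had 27.3 and 29.8 FPKM in HSCs alone, 31.3 and 33.5 in HSCs with RBCs, 33.3 and 38.0 in LSK cells alone and 41.0 and 42.4 in LSK cells with RBCs, and LSK cells with RBCs were higher than HSCs with RBCs by 0.36 (SE 0.092, adjusted p = 0.022). Neu1 (chr17:34931253-34935953, plus strand), the sialidase that needs cathepsin A, had 7.78 and 7.32 FPKM in HSCs without RBCs, 5.35 and 7.22 in HSCs with RBCs, 10.2 and 10.8 in LSK cells without and 10.1 and 9.45 in LSK cells with RBCs, with a log2 difference of 0.57 (SE 0.14, adjusted p = 0.019) with RBCs. At a lower level, Gla (chrX:134588149-134601125, minus strand), the alpha-galactosidase, had 2.64 and 2.40 FPKM in HSCs alone, 2.0 and 2.50 in HSCs with RBCs, 3.94 and 4.04 in LSK cells alone and 3.59 and 3.93 in LSK cells with RBCs and differed by 0.56 (SE 0.15, adjusted p = 0.028). All 4 LSK libraries lay above all 4 HSC libraries for Neu1 and Gla, and without RBCs the differences were 0.42 and 0.51 (adjusted p = 0.086 and 0.059). Both are low genes, whose log2(FPKM + 1) differences understate the change, and the values of Gla stand for at least 74 to 167 reads per library and those of Neu1 for at least 256 to 573.

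Grn (chr11:102430315-102437048, plus strand), which encodes progranulin, was called without RBCs. It had 124 and 106 FPKM in HSCs without RBCs, 123 and 119 in HSCs with RBCs, 142 and 169 in LSK cells without and 127 and 137 in LSK cells with RBCs. LSK cells alone exceeded HSCs alone by 0.43 (SE 0.10, adjusted p = 0.022), and with RBCs the difference was 0.12 (adjusted p = 0.41), and the LSK libraries with RBCs lay below those without. This call ended without the second LSK library lacking RBCs (adjusted p = 0.15) or the second HSC library lacking them (adjusted p = 0.11). Ctsb, Ctsz, Hexa and Gaa, which encode cathepsins B and Z, the alpha chain of beta-hexosaminidase and acid alpha-glucosidase, were not called in any comparison in the fit reported here, at means of 76.5, 169.5, 133 and 60.0 FPKM. Ctsb had the lowest value of the 36 for LSK cells against HSCs without RBCs: its FPKM was 85.7 and 81.8 in HSCs and 68.6 and 73.8 in LSK cells, which do not overlap, a log2 difference of -0.23 with an adjusted p of 0.056. It was called lower in LSK cells with median scaling (adjusted p = 0.039) and with upper-quartile scaling (adjusted p = 0.036).

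**Figure D4:**
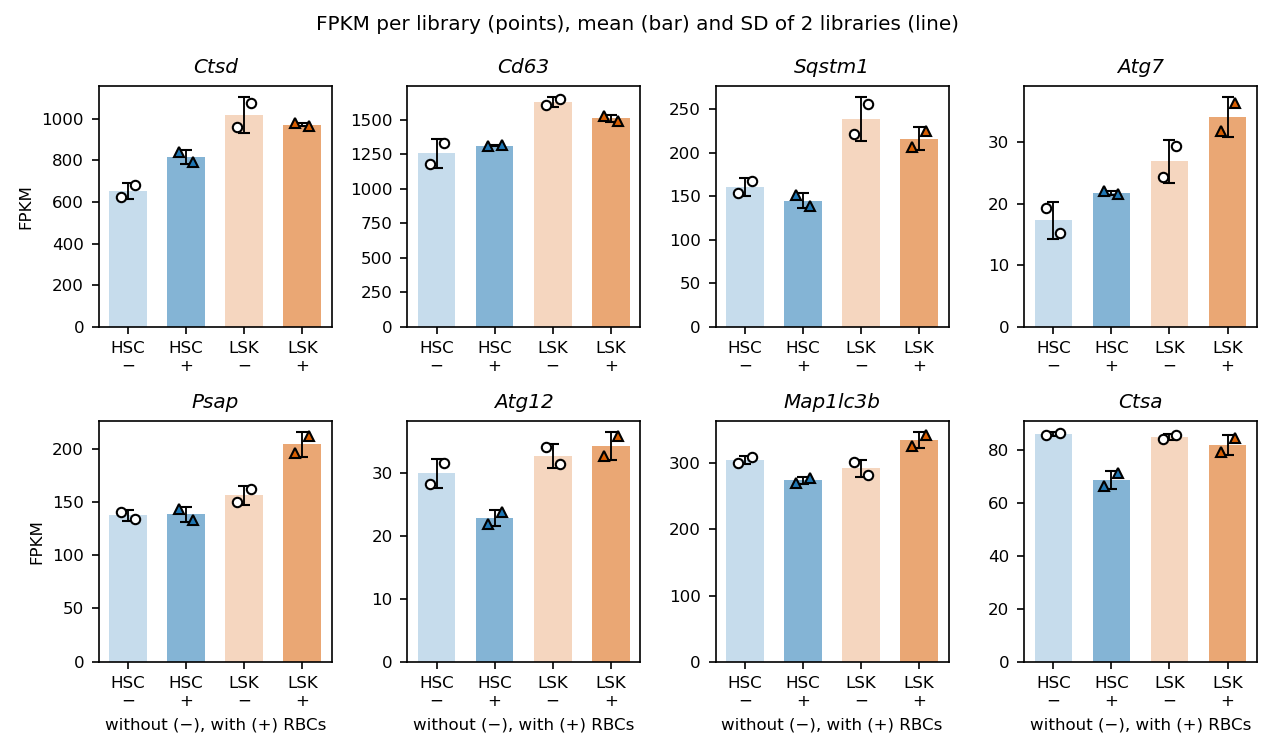
FPKM of 8 of the genes (linear axes from 0) in HSCs and LSK cells without (−) and with (+) RBCs; points are libraries, bars the mean of 2 libraries and lines the SD. Ctsd, Cd63, Sqstm1 and Atg7 are higher in LSK cells in both conditions, Psap is highest in LSK cells with RBCs, and Atg12, Map1lc3b and Ctsa are lowest in HSCs with RBCs.

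Of the 3 proton pump genes, Atp6v0d1 (chr8:105524465-105566047, minus strand), a subunit that joins the membrane sector of the V-ATPase to its stalk, differed in both conditions. The levels were 29.7 and 34.0 FPKM in HSCs without RBCs, 41.9 and 44.6 in HSCs with RBCs, 51.0 and 41.0 in LSK cells without and 57.4 and 64.2 in LSK cells with RBCs. LSK cells exceeded HSCs by 0.51 (SE 0.12, adjusted p = 0.019) without RBCs and by 0.48 (SE 0.12, adjusted p = 0.016) with them. Without the first LSK or first HSC library lacking RBCs the former call was lost (adjusted p = 0.11 and 0.088). Libraries with RBCs lay above those without in both cell types, by 0.43 in HSCs and 0.40 in LSK cells, which missed the threshold at adjusted p = 0.11 and 0.1. Atp6v1h (chr1:5070018-5162529, plus strand), the regulatory H subunit of the catalytic sector and the highest of the 3 on average, had 59.8 and 69.7 FPKM in HSCs alone, 56.2 and 55.9 in HSCs with RBCs, 72.2 and 70.8 in LSK cells alone and 77.2 and 73.1 in LSK cells with RBCs. It was called with RBCs (0.42, SE 0.083, adjusted p = 0.0069), where both HSC libraries lay below all others, and not without them (0.14, adjusted p = 0.29). Atp6v1a, the catalytic A subunit (mean 35.0 FPKM), was not called, with log2 differences of 0.24 and 0.067 between the cell types.

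The transcription factor genes were low, and neither passed the test in any comparison. Tfe3 had 9.02 and 7.96 FPKM in HSCs without RBCs, 8.74 and 9.52 in HSCs with RBCs, 9.81 and 9.36 in LSK cells without and 9.20 and 8.57 in LSK cells with RBCs, with differences between the cell types of 0.16 without RBCs and -0.035 with them. Tfeb had 6.63 and 4.55 FPKM in HSCs alone, 6.31 and 6.85 in HSCs with RBCs, 5.46 and 6.64 in LSK cells alone and 3.93 and 5.65 in LSK cells with RBCs, and its replicates overlapped across groups except that both LSK libraries with RBCs lay below both HSC libraries with RBCs. That difference was -0.40 (95% interval -0.86 to 0.051, adjusted p = 0.18). Both proteins are known to be controlled by phosphorylation and location in the cell, which RNA does not show. The 11 genes with CACGTG in any promoter entry had a median log2 difference between LSK cells and HSCs of 0.24 without RBCs and 0.25 with them, with 3 and 6 called. For the 19 with an entry but no match the medians were 0.18 and 0.14, with 3 and 7 called.

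Genes of autophagy initiation and membrane nucleation were led by Becn1 (chr11:101285952-101302286, minus strand), which encodes Beclin 1, a core part of the lipid kinase complex. It had 88.8 and 90.3 FPKM in HSCs without RBCs, 88.6 and 85.9 in HSCs with RBCs, 98.6 and 104 in LSK cells without and 108 and 110.5 in LSK cells with RBCs, with all 4 LSK libraries above all 4 HSC libraries. The log2 difference was 0.18 without RBCs (adjusted p = 0.099) and 0.32 (SE 0.064, adjusted p = 0.0071) with them. Uvrag (chr7:98885021-99141141, minus strand), a partner of Beclin 1 that acts in autophagosome and endosome maturation, had 15.6 and 15.4 FPKM in HSCs alone, 16.1 and 14.4 in HSCs with RBCs, 16.5 and 22.1 in LSK cells alone and 19.6 and 23.3 in LSK cells with RBCs and was called with RBCs by a small margin (0.47, SE 0.14, adjusted p = 0.043), a call kept in 8 of 18 alternatives. Ulk1, the kinase that starts autophagy, and Wipi2, a reader of the lipid signal, were not called, at means of 17.1 and 24.6 FPKM.

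Wipi1, another reader of that lipid signal, had the largest point estimates for RBCs and the widest spread. Its FPKM was 4.17 and 1.75 in HSCs without RBCs, 7.82 and 6.79 in HSCs with RBCs, 2.18 and 5.11 in LSK cells without and 6.37 and 7.27 in LSK cells with RBCs, and libraries with RBCs lay above those without in both cell types. The log2 differences were 1.14 in HSCs (95% interval 0.38 to 1.90, adjusted p = 0.14) and 0.82 in LSK cells (0.065 to 1.58, adjusted p = 0.23), so neither was called. In reads, the values stand for at least 99 and 34 in HSCs alone, 165 and 162 in HSCs with RBCs, 46 and 120 in LSK cells alone and 119 and 144 in LSK cells with RBCs.

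In the conjugation machinery, Atg7 and Atg12 were called. Atg7 (chr6:114643097-114860614, plus strand), the activating enzyme for both ubiquitin-like systems, had 19.4 and 15.2 FPKM in HSCs without RBCs, 22.1 and 21.6 in HSCs with RBCs, 24.5 and 29.4 in LSK cells without and 31.9 and 36.4 in LSK cells with RBCs. LSK cells were higher than HSCs by 0.61 (SE 0.13, adjusted p = 0.016) without RBCs, a mean FPKM 55.7% higher, and by 0.62 (SE 0.13, adjusted p = 0.0098) with them, 56.4% higher. Its values with RBCs lay above those without in both cell types (0.33 and 0.33), with adjusted p of 0.31 and 0.22. Without the second LSK or second HSC library lacking RBCs, the call without RBCs was lost (adjusted p = 0.11 and 0.086).

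Atg12 encodes the ubiquitin-like protein that Atg7 activates before it is joined to Atg5. The gene had 28.3 and 31.6 FPKM in HSCs alone and 21.9 and 23.8 in HSCs with RBCs. In LSK cells it had 34.0 and 31.4 alone and 32.8 and 35.8 with RBCs. Both HSC libraries with RBCs lay below all 6 others. LSK cells exceeded HSCs by 0.56 (SE 0.096, adjusted p = 0.0033) with RBCs, under every one of the 18 alternatives, and by 0.13 without them (adjusted p = 0.44). In HSCs the log2 difference with RBCs against without was -0.37, which missed the threshold (adjusted p = 0.092), and the difference between the RBC effects was 0.44 (adjusted p = 0.24). Atg3, the enzyme that joins Atg8 proteins to lipid, was the highest of the group at 56.2 and 57.3 FPKM in HSCs without RBCs, 65.0 and 63.6 in HSCs with RBCs, 62.5 and 71.2 in LSK cells without and 71.1 and 65.9 in LSK cells with RBCs. It was not called, nor were Atg5 (mean 32.6 FPKM) and Atg16l1 (mean 15.1 FPKM), which form the complex that directs the lipid step.

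The Atg8 family, the proteins that coat the autophagosome membrane, was dominated by Map1lc3b (chr8:121590361-121598760, plus strand), which encodes LC3B. It had 301 and 310.1 FPKM in HSCs without RBCs, 271 and 278 in HSCs with RBCs, 302 and 283 in LSK cells without and 327 and 344 in LSK cells with RBCs. HSCs with RBCs were the lowest group and LSK cells with RBCs the highest, without overlap, while the groups without RBCs overlapped. The log2 difference between the cell types was -0.064 without RBCs (95% interval -0.20 to 0.076) and 0.29 (SE 0.062, adjusted p = 0.01) with them. RBC effects were -0.16 in HSCs and 0.20 in LSK cells (adjusted p = 0.3 and 0.13), and their difference was 0.35 (SE 0.088, adjusted p = 0.18). Gabarapl2 (chr8:111940703-111953612, plus strand) had 144 and 165 FPKM in HSCs alone and 151 and 149 in HSCs with RBCs. In LSK cells it had 150.1 and 152.5 alone and 178 and 182 with RBCs. Unlike for Map1lc3b, HSCs with RBCs overlapped both groups without RBCs. The LSK libraries with RBCs exceeded all others, and the difference from HSCs with RBCs was 0.26 (SE 0.073, adjusted p = 0.03), kept in 11 of 18 alternatives.

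Map1lc3a (chr2:155276297-155278073, plus strand), which encodes LC3A, was the lowest of the family and had 22.5 and 20.7 FPKM in HSCs without RBCs, 20.5 and 21.1 in HSCs with RBCs, 26.8 and 34.3 in LSK cells without and 28.4 and 24.2 in LSK cells with RBCs. All LSK libraries lay above all HSC libraries. It was called without RBCs (0.47, SE 0.13, adjusted p = 0.038) and not with them (0.32, adjusted p = 0.096), and the former call was kept in 8 of 18 alternatives. Gabarap (mean 219 FPKM) was not called, with differences between the cell types of -0.03 and 0.13. Gabarapl1 (mean 80.6 FPKM) had 92.6 and 59.8 FPKM in the 2 libraries of HSCs without RBCs, a gap wider than that between any 2 group means, and was not called either. The order of mean levels in the family was Map1lc3b, Gabarap, Gabarapl2, Gabarapl1 and Map1lc3a, and in no library did Map1lc3a reach the level of another member.

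Sqstm1 (chr11:50199366-50210827, minus strand), which encodes the cargo receptor p62, was called in both comparisons of cell types. Its FPKM was 154 and 168 in HSCs alone, 151 and 139 in HSCs with RBCs, 221.5 and 256.5 in LSK cells alone and 207 and 225.5 in LSK cells with RBCs, with every LSK library above every HSC library. LSK cells were higher by 0.56 (SE 0.089, adjusted p = 0.0038) without RBCs, a mean FPKM 48.5% higher, and by 0.57 (SE 0.089, adjusted p = 0.0022) with them, 49.2% higher, and both calls held under all 18 alternatives. RBC effects were -0.15 in HSCs and -0.14 in LSK cells, and the difference between them was 0.0096 (95% interval -0.28 to 0.29). Sqstm1 RNA is itself a target of stress signalling, and p62 protein is removed by autophagy, so the RNA level does not give the flow through the pathway.

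In all, 17 of the 36 genes were called in no comparison: Lamp2, Mcoln1, Ctsb, Ctsz, Hexa, Gaa, Atp6v1a, Tfeb, Tfe3, Ulk1, Wipi1, Wipi2, Atg3, Atg5, Atg16l1, Gabarap and Gabarapl1. The share of all genes tested that were called in no comparison is not given here, so 17 of 36 has no background beside it. Missing the threshold does not show equal levels, and the intervals of these 17 genes are drawn in the plots of the differences. Some of the 36 overlap another gene on the opposite strand (Lamp1, Ctsa, Ctsb, Ctsz, Hexa, Grn, Atp6v1h, Becn1, Map1lc3b and Gabarapl1), where reads of the 2 genes cannot be told apart in libraries that do not mark strand.

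Other genes of the same pathways, 145 listed and 139 tested, were called higher in LSK cells more often than lower. Their lists were drawn up with earlier results of these data known, and the same libraries were used. The counts are therefore not an independent test of the pattern described above. Without RBCs, 16 of the 139 (11.5%) were higher in LSK cells and 8 (5.76%) lower, and with RBCs 35 (25.2%) were higher and 6 (4.32%) lower, beside the shares of all genes given above. The medians were 0.12 and 0.18 on the log2 scale. With RBCs, 6 of 14 other proton pump subunits were higher in LSK cells and 0 lower, 7 of 17 other membrane genes were higher and 1 lower, 13 of 38 other hydrolases and cofactors were higher and 3 lower, and 1 of 23 genes of lysosomal nutrient signalling was higher and 2 lower. Without RBCs the lists stood in another order: 2 of the 14 were higher and 0 lower, 1 of the 17 higher and 1 lower, 5 of the 38 higher and 3 lower, and 4 of the 23 higher and 1 lower. The largest higher values were those of Mfsd8 (0.62), a lysosomal membrane transporter, Calcoco1 (0.61), an autophagy receptor, and Rptor (0.56), the mTORC1 scaffold, without RBCs. With RBCs they were Pink1 (0.84), the mitophagy kinase, Ctsf (0.74), a cathepsin, and Bcl2 (0.67), an inhibitor of apoptosis that binds Beclin 1.

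Not every lysosomal gene was higher in LSK cells. Cd68, a lysosomal membrane glycoprotein that is also on the macrophage list, had 85.9 and 107 FPKM in HSCs alone, 96.3 and 98.9 in HSCs with RBCs, 43.8 and 48.6 in LSK cells alone and 68.1 and 58.5 in LSK cells with RBCs. It was lower in LSK cells, with a log2 difference from HSCs of -1.04 (SE 0.11, adjusted p = 0.00054) without RBCs, the only one of these other genes called at 2-fold there, and of -0.62 (SE 0.11, adjusted p = 0.0049) with them. Ctsh (-0.56) and Vmp1 (-0.45) were the next largest lower values without RBCs, and Arsb (-0.84) and Mlst8 (-0.59) stood with Cd68 in cells with RBCs, the last at the threshold (adjusted p = 0.05). They encode cathepsin H, a protein of autophagosome formation, arylsulfatase B and a subunit of the mTOR complexes.

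Few of these other genes were called for RBCs either. Acp5, the tartrate-resistant acid phosphatase of macrophages and osteoclasts, was higher with RBCs in both cell types: it had 9.13 and 9.19 FPKM in HSCs alone, 14.1 and 14.2 in HSCs with RBCs, 6.14 and 7.27 in LSK cells alone and 16.8 and 15.4 in LSK cells with RBCs. The log2 differences were 0.58 (SE 0.12, adjusted p = 0.036) in HSCs and 1.16 (SE 0.12, adjusted p = 0.0011) in LSK cells, the latter past 2-fold. In HSCs, Ctsf (-0.60, SE 0.085, adjusted p = 0.0069) and Bnip3 (-0.45, SE 0.088, adjusted p = 0.032), a mitophagy receptor, were lower, so 1 of 139 (0.719%) was higher and 2 (1.44%) lower, beside 1.57% and 0.958% of all genes. In LSK cells, Ctss (0.57, SE 0.08, adjusted p = 0.0069), cathepsin S of antigen-presenting cells, and Fundc1 (0.44, SE 0.08, adjusted p = 0.022), another mitophagy receptor, were higher, so 3 of 139 (2.16%) were higher and 0 lower, beside 2.32% and 1.13% of all genes. Beside Acp5 and Ctss, the macrophage and neutrophil marker sums were also higher in LSK cells with RBCs than without, as given above. Among macrophage markers in LSK cells, Csf1r had 14.1 and 22.8 FPKM without RBCs and 47.2 and 54.3 with them. Adgre1, under 1 FPKM in every library, had 0.025 and 0.068 without and 0.566 and 0.267 with them. Other low markers did not rise: Vcam1 had 0.597 and 0 without and 0 and 0.076 with them. C1qb had 0 and 1.13 without and 0 and 0.859 with them. C1qa and Marco were listed at 0 in every library. The part of such cells was not tested.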

How the data were processed

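RNA from 8 libraries had been made into full-length cDNA (SMART-Seq HT, Nextera XT). The authors deposited 1 FPKM value per gene symbol and library, without pooling; their processing notes name TopHat2 2.1.1, Bowtie2 2.2.8, SAMtools 0.1.18, Cuffdiff 2.2.1 and mm10, and the annotation is not given in the sources used here. FPKM removes depth and transcript length, and the absolute number of reads cannot be had from it. The depth of the libraries relative to each other came from 5365 low genes, of which 88.1% had whole multiples of 1 step (within 0.08 reads). Read numbers for Gla, Neu1 and Wipi1 are lower bounds.

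Groups came from the sample labels. log2(FPKM + 1) of 12003 genes was fitted with limma 3.58.1 (R 4.3.3), with 4 group means, a mean-variance trend, residual df of 4 and prior df of 5.18. Genes were called at a Benjamini-Hochberg adjusted p under 0.05 over all 12003. With 2 libraries against 2, an exact permutation test cannot go below p = 0.333, so the calls depend on limma sharing the spread between genes. The procedure was tested on simulated data.

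All 36 genes are named. Values per library are given for called genes and for the highest of each role, for Wipi1, Tfeb, Ctsb and Gabarapl1 after their values were seen, and for at most 3 other pathway genes per comparison and direction. Genes and lists were chosen with earlier results of these data known. Gene positions are from GENCODE M21 (GRCm38), the build called mm10, and promoters from RefSeq (GRCm38.p6). Of the marker symbols, 3 were not found. Alternatives covered the pseudocount, filter, scaling, trend, samples fitted, replicate block and each library left out.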

Additional observations from a re-analysis of the deposited data

How the results depend on the processing

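With 2 libraries a group and effects well under 2-fold, the number of calls moves with the setting. Calls over all genes tested moved as well, and became fewer in each comparison when 1 of its own libraries was left out. Over 3204 values of the 36 genes under the alternatives, 3071 stayed on their side of the threshold, 108 calls were lost, 25 were gained and 0 called values changed sign, while 96 values that were never called did. The balance of higher and lower calls did shift: with quantile normalization the 1 call for RBCs in HSCs was Ctsd, higher, in place of Ctsa, lower, and between cell types without RBCs median and upper-quartile scaling each added Ctsb as 1 lower call. Requiring 2-fold left 0 calls among the 36 genes in each comparison.

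For the RBC effect in HSCs, where 1 gene was called, the count was 0 with a pseudocount of 0.1 or 0.01, no filter, upper-quartile scaling, no mean-variance trend or only the 4 libraries compared, and 2 with the filter on all 8 libraries. It was 0 to 0 when single libraries were left out. For LSK cells, also with 1 gene called, it was 0 with no filter or no mean-variance trend, 4 with quantile normalization, and 0 to 3 when single libraries were left out (3 without either library of HSCs lacking RBCs). Between cell types without RBCs, where 7 were called, it was 3 with no filter, 2 with only the 4 libraries compared, and 3 to 7 when single libraries were left out. With RBCs, where 16 were called, it was 4 to 16 when single libraries were left out. Leaving out 1 library assumes that the lone library of its group varies like the others. The cause was not tested. Over all alternatives the median difference of the 36 ran from -0.019 to 0.031 for RBCs in HSCs and from -0.02 to 0.060 in LSK cells, so its sign is not settled there, and from 0.15 to 0.24 and 0.21 to 0.28 between cell types without and with RBCs.

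The replicate numbers pair nothing that the labels state, and the differences between libraries 1 and 2 correlated between groups by only -0.067 to 0.095. A fit with a replicate block called 0 genes for RBCs in HSCs and 0 in LSK cells, 7 for LSK cells against HSCs without RBCs and 15 with them. The unknown depth limits what can be said of low genes such as Gla, Wipi1 and Tfeb. The background over genes with a mean of at least 20 FPKM was added after the data had been seen.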
